A study of Mus musculus with 4 samples.

Results

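Potassium channel genes were followed in pancreatic islets, the endocrine clusters that release insulin, glucagon and other hormones, of mice with Tafazzin knocked down and of non-transgenic controls. The family was taken as every row of the deposited table whose gene symbol starts with Kcn, leaving out Kcnj11, Kcnn4 and 4 antisense or opposite-strand transcripts, which gave 92 of 24940 genes. Of these, 49 had a mean of at least 1 unit and were tested, and 43 did not, of which 13 were read at 0 in every library. A unit is 1 read per 10000000 reads of the library.

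Both groups were male mice of 3-4 months on a low-fat chow. Control replicates 1 and 2 came from non-transgenic mice, and knockdown replicates 3 and 4 from Tafazzin-knockdown mice. Each library was a pool of about 300 islets from 2-3 mice. The labels do not say how the knockdown was made, and since the controls carried no transgene, an effect of a transgene cannot be told apart from one of Tafazzin loss.

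Potassium channels let potassium leave the cell and so set the resting voltage and end each electrical spike. In beta cells, glucose metabolism closes channels that hold the membrane at rest, calcium enters through voltage-gated channels, and insulin is released. Delayed rectifiers and calcium-activated channels then repolarize the membrane, two-pore-domain channels carry background current, and G-protein-gated inward rectifiers respond to inhibitory hormones. The family divides into pore-forming subunits and accessory subunits, which change the gating or surface level of a pore without conducting.

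The pore-forming members share a selectivity-filter signature, the stretch of the pore loop at which potassium sheds its water. The bases that encode it are shown here because they tell pore-forming from accessory members. Coding sequences of GENCODE M21 (GRCm38) were matched for all 92 genes, for 86 of them through the RefSeq record named in the deposited table. The 42 bases around the signature of leading members are printed 5′ to 3′ in the sense of the gene, with the codons for glycine, an aromatic residue and glycine in capitals.
Kcnf1, chr12:17175046-17175087, minus strand: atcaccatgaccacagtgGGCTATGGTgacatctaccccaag
Kcnh2, chr5:24325540-24325581, minus strand: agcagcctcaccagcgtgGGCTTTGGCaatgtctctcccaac
Kcnma1, chr14:23528398-23528439, minus strand: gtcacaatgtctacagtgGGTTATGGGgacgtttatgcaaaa
Kcnj6, chr16:94832762-94832803, minus strand: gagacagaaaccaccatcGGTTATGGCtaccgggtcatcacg
Kcnk16 first loop, chr14:20264304-20265184 with an intron inside, minus strand: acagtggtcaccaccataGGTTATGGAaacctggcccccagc
Kcnk16 second loop, chr14:20262972-20263288 with an intron inside, minus strand: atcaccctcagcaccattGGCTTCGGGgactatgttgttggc
The middle codon reads TAT, for tyrosine, in Kcnf1, Kcnma1, Kcnj6 and the first loop of Kcnk16. It reads TTT in Kcnh2 and TTC in the second loop of Kcnk16, for phenylalanine.

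The whole coding sequence was searched for threonine or serine, any residue, glycine, then tyrosine, phenylalanine, leucine or methionine, then glycine. This signature occurred in 76 of the 92 members. All 14 two-pore-domain genes held it at 2 places. All 14 inward rectifiers and all 10 silent subunits held it once. Of the 13 Kv accessory genes 12 lacked it, as did the 4 Kcnmb genes. Kcne1l, whose protein forms no pore, held 1 match, and Kcnh2 and Kcna6 each held a second match besides the pore. Of 21794 protein-coding genes, 5.88% held the signature at least once and 0.619% at 2 or more places.

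Taz, the gene of Tafazzin, which remodels the mitochondrial lipid cardiolipin, stood at 23.1 and 15.4 units in the controls against 13.8 and 12.7 in the knockdown. It was lower in both knockdown libraries, as labelled, at a relative log2 fold change of -0.65 (-1.15 to -0.15), but was not called (adjusted p = 0.529 by limma and 0.122 by edgeR).

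The Kcn rows together held 1381 and 1012 units in the controls and 1247 and 1307 units in the knockdown libraries. These are 9502, 8207, 9560 and 10275 reads. The order is that of single genes too, with control replicate 1 high and control replicate 2 low. In 39 of the 49 tested members control replicate 2 lay below control replicate 1, and the same held for 77.4% of all genes tested. In 15 members both knockdown libraries lay within the range of the controls, against 23.4% of all genes tested. Scaling by median ratios used size factors of 1.04 and 0.851 for the controls and 1.08 and 1.06 for the knockdown libraries. It took the median deviation of members in control replicate 2 from -0.22 to -0.03 on the log2 scale. Over all genes tested the median deviation in this library went from -0.22 to 0.00.

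Of the 49 tested members, 0 were called higher or lower in the knockdown islets by limma at an adjusted p of 0.05, against 2.53% of all 13531 genes tested (2.49% higher and 0.0443% lower). At an unadjusted p under 0.05 there were 3 members (Kcnf1, Kcnk3 and Kcnk5), which is 6.12% of them, against 10.3% of all genes. The edgeR test on recovered reads called 0 members, against 1.43% of all genes (1.29% higher and 0.148% lower), and DESeq2 called 0, against 0.68% (0.606% higher and 0.0739% lower). At an unadjusted p under 0.05 edgeR gave 3 members (Kcnf1, Kcnh5 and Kcnk3), against 10.3% of all genes, and DESeq2 gave 0, against 5.39%. Limma after median-ratio scaling called 0, against 1.28% of all genes (1.12% higher and 0.163% lower), and gave 4 members at an unadjusted p under 0.05, against 10.3%. Without control replicate 1, control replicate 2 stood alone, and limma called more of all genes higher, members among them. These calls rest on 1 control library and rose over all genes too, so they are not read as a result about the members. The members among them were Kcnq1, Kcnh1, Kcnip4, Kcnb2 and Kcng3, at relative log2 fold changes of 0.33, 0.28, 0.32, 0.51 and 0.98. Without knockdown replicate 4 the relative log2 fold change of Kcnf1 was -2.10.

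Across all genes the knockdown libraries were shifted upward by a median of 0.17 on the log2 scale, which median-ratio scaling took to -0.01. Fold changes are given here for log2(units + 1) after subtracting that shift, while limma p-values are for the change before subtraction. On this relative scale the median of the members was -0.04. Of the 49, 26 lay below the median of all genes, against 50% of all genes.

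**Figure D1:**
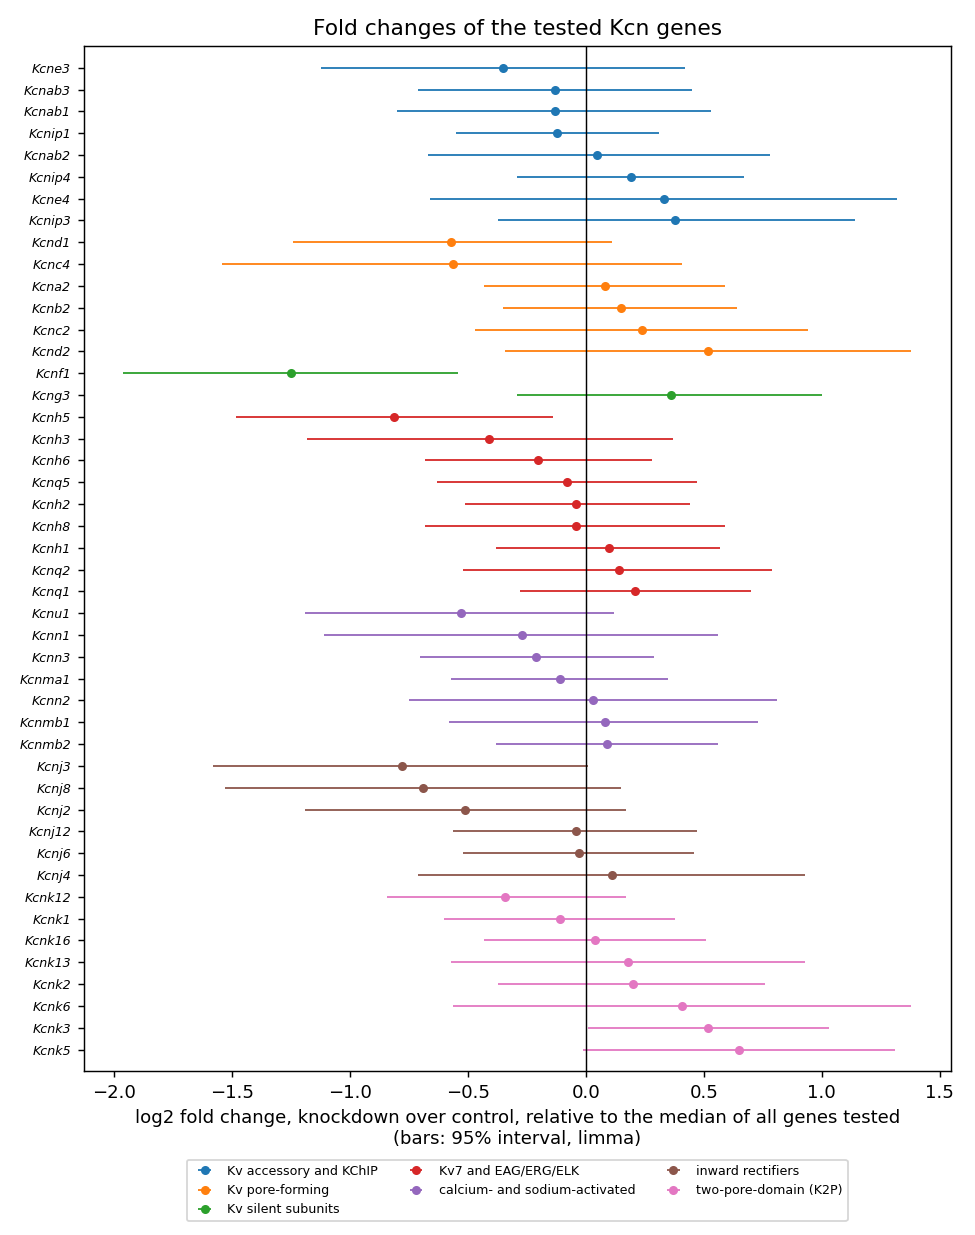
Log2 fold change of the tested Kcn genes that are reported here, knockdown over control, relative to the median of all genes tested, with the 95% interval from limma and a colour for each subunit class. The intervals of Kcnf1 and Kcnh5 lie wholly below 0 and that of Kcnk3 just above it, but with adjusted p-values of 0.0859, 0.520 and 0.178 none of these genes was called.

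The groups did not overlap in 10 members with the knockdown higher, which is 20.4% of the members against 34.9% of all genes. They did not overlap in 5 members with the knockdown lower, 10.2% of the members against 4.49% of all genes. After median-ratio scaling these counts were 6 higher and 14 lower, against 20.4% and 20% of all genes. The 14 lower members then included Kcnip1, Kcnh6, Kcnj2, Kcnf1, Kcnj3 and Kcnk12. The split of direction thus depended on how the libraries were scaled. Overlap and range of single genes are given for values before scaling unless stated.

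Precision differed with the level. For the 19 members with a mean of at least 10 units the 95% interval reached at most 0.52 to either side of the estimate, and the intervals together ran from -0.84 to 1.03. For the least abundant tested members it reached 0.99. The spread behind these intervals is a trend over all genes, since the fit took infinite prior degrees of freedom. A missing call therefore does not show that a gene was at the same level in both groups.

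The row with most units was that of Kcnip1, a calcium-binding KChIP protein that binds Kv4 channels. Kcnip1 (NM_001190886; mm10 chromosome 11, 33629341 to 33993193, minus strand) stood at 471 and 358 units in controls and 409 and 440 in the knockdown libraries, from 2901 to 3459 reads. Both knockdown libraries lay between the controls. It held 33.9% of all Kcn units, and the 6 genes with most units, Kcnma1, Kcnh2, Kcnmb2 and Kcnk16 among them, held 65.2%.

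Values were apparently counted over whole gene bodies, so that a long gene collects reads from its introns. Tested members had a median genomic span of 52200 nt, untested members of 13500 nt, and all tested genes of 22900 nt. Per kb of span the order changed, though division by span in turn lowers long genes, since their introns count in the span. Kcnk16, which encodes the islet background channel TALK-1, came first with a mean of 9.70 units per kb over the 4 libraries (10.2, 7.88, 10.6 and 10.1). Kcnh2 stood at 2.26, Kcnh6 at 1.79 and Kcnip1 at 1.15 units per kb. The lead of Kcnk16 over Kcnh2 held in each library, where Kcnh2 lay between 1.75 and 2.67 units per kb. Kcnh6 was closer to Kcnh2, at 1.66 to 1.96 units per kb, and their ranges overlapped. Kcnma1 and Kcnip4, with the longest spans, stood at 0.157 and 0.0420 units per kb.

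**Figure D2:**
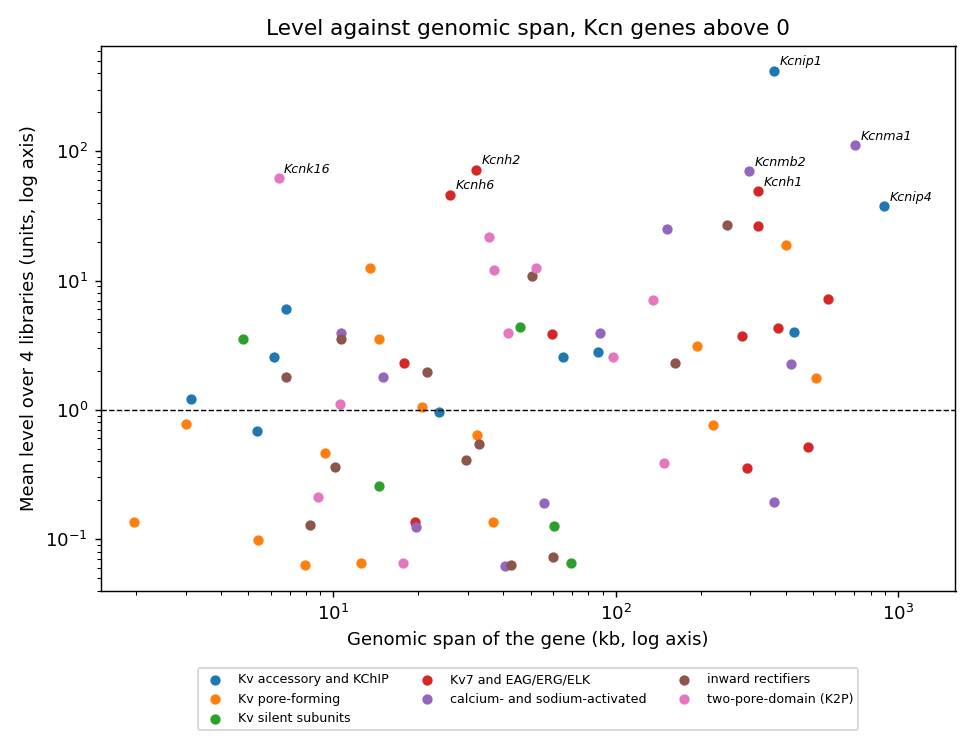
Mean level over the 4 libraries in units against genomic span in kb, both on log axes, for the Kcn genes above 0 that are reported here, coloured by subunit class. The dashed line marks 1 unit, the limit for testing. Kcnk16 stands far above other genes of its span, at a mean of 62.2 units, whereas Kcnip1, Kcnma1 and Kcnip4 are long genes.

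Among the pore-forming Kv genes, Kcnb2 encodes the delayed rectifier Kv2.2 and stood at 23.5 and 11.2 against 19.7 and 21.4 units. Both knockdown libraries lay within the control range, and control replicate 2 was the library apart. The log2 fold change of Kcnb2 was 0.15 with a 95% interval of -0.35 to 0.64 (limma adjusted p = 0.801). Kcnd2, an A-type channel of the Kv4 group, stood low, at 1.16 and 0.987 against 3.39 and 1.53 units, from 8, 8, 26 and 12 reads. The knockdown libraries lay above the controls, at a log2 fold change of 0.52 (-0.34 to 1.38, limma adjusted p = 0.664).

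Of 17 pore-forming Kv genes 8 were tested, 4 above and 4 below the median of all genes. The other 9 (Kcna1, Kcna3, Kcna4, Kcna5, Kcna6, Kcna7, Kcna10, Kcnc1 and Kcnd3) had means of at most 0.777 units. Of the Kv1 genes only Kcna2 was tested, at 13.1 and 9.5 against 10.7 and 16.8 units with overlapping groups.

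Silent subunits have a pore signature but form channels only together with Kv2 subunits. Kcnf1, which encodes Kv5.1, had the lowest p-value of the family. Kcnf1 (NM_201531; mm10 chromosome 12, 17172100 to 17176888, minus strand) stood at 6.39 and 3.45 units in controls and 0.522 and 3.81 in the knockdown libraries, from 44, 28, 4 and 30 reads. Knockdown replicate 3 was far below the other libraries. Knockdown replicate 4 lay within the control range, but below it after median-ratio scaling. The fitted difference was -1.25 on the log2 scale (-1.96 to -0.54; limma adjusted p = 0.0859, edgeR adjusted p = 0.381). It was -2.10 without knockdown replicate 4 and -0.41 without knockdown replicate 3. Over 14 alternative fits the adjusted p ran from 0.00191 without knockdown replicate 4 to 1.0 without knockdown replicate 3, and it was under 0.05 in 2. Kcng3, which encodes Kv6.3, stood at 6.10 and 1.48 against 5.09 and 4.96 units. Here control replicate 2 was the library apart. Of the other 8 silent subunits 5 (Kcng1, Kcng4, Kcns1, Kcns2 and Kcnv1) were read at 0 in every library, and Kcng2, Kcns3 and Kcnv2 had means of at most 0.258 units. A count of 0 allows up to 3 reads, or 0.370 to 0.436 units in 1 library, for counting error alone, if each read was counted on its own. Most low read counts were even, and if reads were counted in pairs this limit is too low.

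The ether-a-go-go genes form the next class, with the Kv7 genes. Kcnh2, which encodes the ERG1 channel known for cardiac repolarization, stood at 82.4 and 56.1 against 65.1 and 85.3 units. Kcnh1, which encodes EAG1, stood at 55.2 and 35.0 against 55.0 and 50.9 units. Kcnh6, which encodes ERG2, stood at 50.7 and 43.0 against 46.0 and 45.4 units. All 3 overlapped between the groups, with log2 fold changes of -0.04, 0.10 and -0.20 and limma adjusted p-values of 0.940, 0.843 and 0.988. Kcnh2 turned to 0.02 after quantile normalization.

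Kcnh5, which encodes EAG2, was lower in both knockdown libraries. Kcnh5 (NM_172805; mm10 chromosome 12, 74897217 to 75177332, minus strand) stood at 4.65 and 4.93 units in controls and 2.61 and 2.80 in the knockdown libraries, from 32, 40, 20 and 22 reads. The means were 4.79 ± 0.201 and 2.70 ± 0.134 units (SD, n = 2 each), a ratio of 0.564, and the groups did not overlap. Its log2 fold change was -0.81 (-1.48 to -0.14). The difference was not called, with adjusted p-values of 0.520 by limma, 0.348 after median-ratio scaling and 0.383 by edgeR. Over its 14 alternatives the adjusted p stayed between 0.258 and 1.0.

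Kcnq1, a Kv7 channel gene, stood at 26.9 and 18.6 against 36.6 and 23.5 units. Kcnq1ot1, an imprinted noncoding RNA of the opposite strand, lies wholly inside it and stood at 23.4 and 15.8 against 30.3 and 21.5 units. Whether strand was used in counting is not given in the sources used here. If it was not, 82.6% to 91.4% of the Kcnq1 reads lay in the span of Kcnq1ot1, and 24, 23, 49 and 16 reads were left to Kcnq1 outside it. The level of Kcnq1 is therefore uncertain. Kcnq5, another Kv7 gene, stood at 6.17 to 7.88 units, and its groups overlapped.

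The accessory genes of Kv channels held the top gene and many silent ones. Kcnip4, a second KChIP gene with the longest span of the family, stood at 39.2 and 27 against 39.6 and 44.5 units. Both knockdown libraries lay above the controls, although knockdown replicate 3 hardly so, and the groups overlapped after median-ratio scaling. The log2 fold change of Kcnip4 was 0.19 (-0.29 to 0.67, limma adjusted p = 0.718). Kcnab3, a beta subunit of Kv1 channels, stood at 5.52 and 6.17 against 4.70 and 7.63 units. Of the Kcne genes, which encode single-span partners of Kv7 and ERG channels, Kcne1, Kcne1l and Kcne2 were read at 0 in every library. Kcne3 stood at 2.33 and 2.71 against 4.43 and 0.763 units, and Kcne4 at 0 and 1.73 against 2.61 and 0.509. Kcne4 lies wholly inside the row of Gm29536, whose mean level is 128% of its own, and the reads of this pair cannot be told apart without strand. Of 13 accessory genes 8 were tested, 4 above and 4 below the median of all genes.

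**Figure D3:**
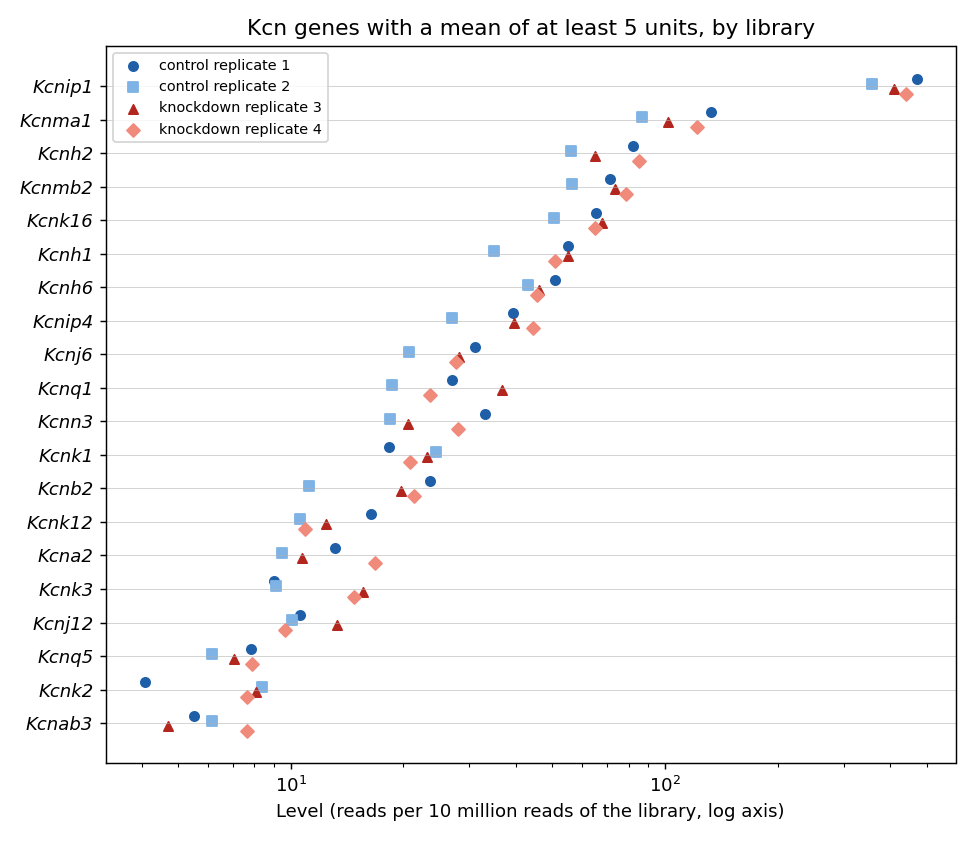
Level in each of the 4 libraries, in units on a log axis, for the Kcn genes with a mean of at least 5 units that are reported here, ordered by mean. In most rows control replicate 2 is the lowest point, as for Kcnb2 at 23.5 and 11.2 units in the controls against 19.7 and 21.4. Kcnk3 is a row in which both knockdown points lie to the right of both controls.

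Calcium-activated channels open with the calcium of each spike. Kcnma1, the pore of the large-conductance BK channel, stood at 133 and 86.7 units in controls and 102 and 122 in the knockdown libraries, within the control range. Its log2 fold change was -0.11 (-0.57 to 0.35; limma adjusted p = 0.978). Kcnmb2, the BK partner that confers inactivation, stood at 71.1 and 56.6 against 73.4 and 78.8 units (0.09, -0.38 to 0.56, limma adjusted p = 0.841). Its knockdown libraries lay above the controls, but the groups overlapped after median-ratio scaling. Kcnn3, the small-conductance channel SK3, stood at 33.1 and 18.4 against 20.6 and 28.0 units. Kcnu1, known as a sperm channel, was read at 4.36 and 4.69 against 4.17 and 2.54 units. Of the 11 genes grouped as calcium- and sodium-activated, 7 were tested, 3 above and 4 below the median. Kcnmb3, Kcnmb4, Kcnt1 and Kcnt2 had means of at most 0.194 units. Kcnmb1, a BK partner of smooth muscle, lies wholly inside Kcnip1, and its 3.21 to 5.21 units cannot be told apart from intron reads of that gene unless strand was used in counting.

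Inward rectifiers pass potassium more easily into the cell than out of it. Kcnj6, the G-protein-gated subunit GIRK2, stood highest, at 31.1 and 20.7 against 28.2 and 27.7 units, with the knockdown libraries within the control range (-0.03, -0.52 to 0.46; limma adjusted p = 0.942). Kcnj3, the subunit GIRK1 that joins it in heteromers, stood at 4.36 and 1.73 against 1.04 and 2.04 units, a log2 fold change of -0.78 (-1.58 to 0.01; limma adjusted p = 0.683). Its groups overlapped before median-ratio scaling but not after it, and control replicate 1 was the library apart. Kcnj12, the Kir2.2 channel, stood at 10.6 and 10.1 against 13.3 and 9.66 units, and Kcnj2, the Kir2.1 channel, at 4.94 and 3.21 against 3.39 and 2.54. Kcnj8, the pore of vascular ATP-sensitive channels and a pericyte gene, stood at 2.62 and 1.97 against 1.56 and 1.02 units, from 18, 16, 12 and 8 reads. It was lower in both knockdown libraries (-0.69, -1.53 to 0.15; limma adjusted p = 0.801). Of 14 inward rectifiers 6 were tested, 5 of them below the all-gene median, and their own median was -0.28 on the relative log2 scale. Kcnj1 and Kcnj9 were read at 0 in every library, and Kcnj13 lies inside the far higher row of Gigyf2.

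Among two-pore-domain genes 6 of 8 tested members lay above the all-gene median, and their own median was 0.19 on the relative log2 scale. The most abundant, Kcnk16, stood at 65.4 and 50.4 against 67.8 and 65.0 units (0.04, -0.43 to 0.51; limma adjusted p = 0.891). Kcnk1, which encodes TWIK-1, stood at 18.3 and 24.4 against 23.2 and 20.9 units, and Kcnk12, which encodes THIK-2, at 16.4 and 10.6 against 12.4 and 10.9. In Kcnk1 and Kcnk12 the knockdown libraries lay within the control range. After median-ratio scaling those of Kcnk12 lay below the controls.

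Kcnk3, which encodes the acid-sensitive channel TASK-1, was higher in both knockdown libraries. Kcnk3 (NM_010608; mm10 chromosome 5, 30588170 to 30625270, plus strand) stood at 9.01 and 9.13 units in controls and 15.6 and 14.8 in the knockdown libraries, from 62, 74, 120 and 116 reads. The means were 9.07 ± 0.0841 and 15.2 ± 0.634 units (SD, n = 2 each), a ratio of 1.68, and the groups did not overlap. Its log2 fold change was 0.52 (0.01 to 1.03). With adjusted p-values of 0.178 by limma and 0.400 by edgeR it was not called. Over 15 alternatives the adjusted p ran from 0.0882 to 1.0. Kcnk5, which encodes the alkali-activated channel TASK-2, stood at 3.20 and 1.97 against 6.26 and 4.32 units, from 22, 16, 48 and 34 reads. Its ratio was 2.05 and its log2 fold change 0.65 (-0.01 to 1.31; limma adjusted p = 0.261, edgeR adjusted p = 0.521). Over 14 alternatives its adjusted p ran from 0.0790 to 1.0. Kcnk6, which encodes TWIK-2, was higher in both knockdown libraries too, at 0.872 and 0.493 against 1.04 and 2.04 units, from 4 to 16 reads (limma adjusted p = 0.818).

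**Figure D4:**
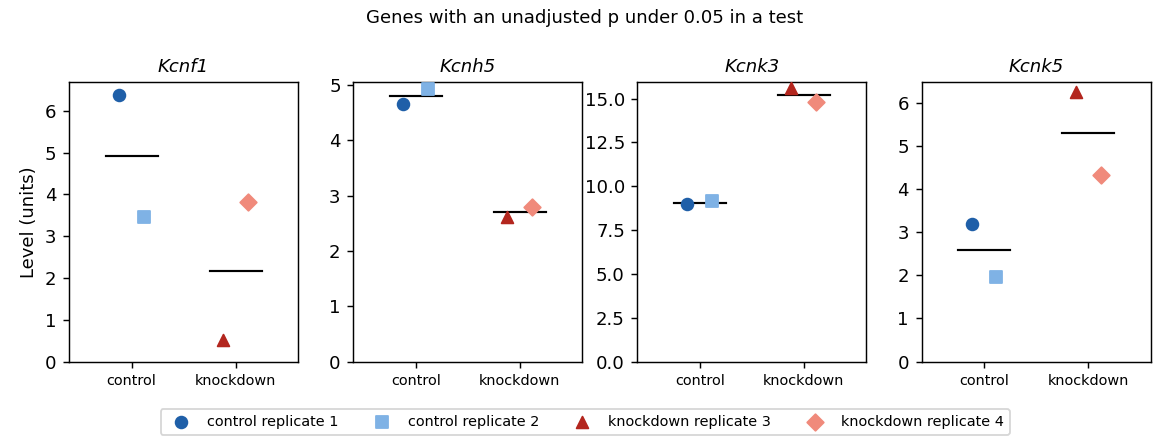
Level in units of Kcnf1, Kcnh5, Kcnk3 and Kcnk5 in each library, with the mean of each group as a bar (2 libraries per group). In these unscaled values Kcnf1 overlaps between the groups and is lowest in knockdown replicate 3, at 0.522 units. Kcnh5 is lower and Kcnk3 and Kcnk5 are higher in both knockdown libraries.

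Markers of stellate cells, ducts and endothelium were higher in the knockdown libraries. Summed markers of stellate cells, fibroblasts and pericytes stood at 121 and 123 units in controls against 374 and 288, with 8 of 12 called higher. Duct markers summed to 536 and 473 against 1060 and 669 units, with 3 of 6 tested markers called higher. Endothelial markers summed to 181 and 152 against 345 and 267 units, with 4 of 9 called higher. These calls are from limma, which called 2.49% of all genes higher. The edgeR test called 7 stellate, 2 duct and 3 endothelial markers higher, against 1.29% of all genes. Summed beta cell markers lay between 78500 and 99400 units and acinar markers between 1960 and 4820, with overlapping groups. Their medians on the relative log2 scale were -0.28 and -0.36. Limma called 0 markers of either list, and edgeR called 1 of the 10 beta cell markers lower. Alpha cell markers summed to 5770 and 6490 against 6950 and 6810 units, and PP cell markers to 1900 and 1790 against 2550 and 2000. Delta cell markers summed to 973 and 814 against 858 and 847 units. Medians of the alpha, PP and delta lists were -0.20, 0.13 and -0.18 on the relative log2 scale, with 0 called by limma or edgeR. Macrophage markers summed to 41.0 and 37.3 against 57.4 and 44.8 units, with a median of -0.03 on the relative log2 scale. Of 5 tested macrophage markers limma called 2 higher (Lyz2 and Cd14) and edgeR called 1 higher. Schwann and neural markers summed to 81.7 and 76.7 against 96.2 and 86.1 units and red blood cell markers to 3.20 and 4.44 against 14.1 and 5.09, with 0 called in either list. No marker of the stellate, duct or endothelial lists was at 0 in every library. The part of these cells in the values of Kcnk3, Kcnk5 and Kcnj8 was not tested, and in bulk islets fewer cells of a type cannot be told apart from less RNA per cell.

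Genes that work with potassium channels were followed through 58 listed partners, of which 57 were in the table and 42 were tested, and their median was -0.08 on the relative log2 scale. Limma called 1 higher, Fxyd3, and 0 lower, against 2.49% and 0.0443% of all genes, and 5 of the 42 had an unadjusted p under 0.05, against 10.3% of all genes. Fxyd3, a small regulator of the sodium-potassium pump, stood at 2.33 and 7.03 against 12.1 and 7.38 units (0.86, 0.29 to 1.42; limma adjusted p = 0.0233). It was not called by edgeR (adjusted p = 0.508) or after median-ratio scaling (0.373). Over 15 alternatives its adjusted p ran from 0.000389 to 1.0, and it was under 0.05 in 6. Leaving out control replicate 1 took its log2 fold change to 0.08 and leaving out control replicate 2 took it to 1.63. With knockdown replicate 3 left out it was 0.54. Atp1b1, a beta subunit of the pump, stood at 193 and 141 against 147 and 179 units and was not called (limma adjusted p = 0.990).

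Accessory subunits outside the Kcn names overlapped between the groups where they were highest. Abcc8, the sulfonylurea receptor of the ATP-sensitive channel, stood at 622 and 463 against 540 and 554 units. Amigo1, an adhesion protein that accompanies Kv2 channels, stood at 43.2 and 33.5 against 41.7 and 46.9. Of the modulators, Nedd4, a ubiquitin ligase, stood at 313 and 239 against 290 and 307 units. Voltage-gated sodium channel genes were led by Scn9a at 48.2 and 30.8 against 43.6 and 35.9 units and Scn3a at 25.7 and 19.5 against 30.3 and 21.6. Of the potassium-chloride cotransporters, Slc12a7 stood at 81.7 and 62.2 against 80.3 and 75.7 units.

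Tmem38a, a potassium-permeable channel of the endoplasmic reticulum, was lower in both knockdown libraries, at 29.9 and 28.6 units in the controls against 19.6 and 21.1. It differed by -0.67 on the log2 scale (-1.16 to -0.18), and limma did not call it (adjusted p = 0.448). It was called lower by edgeR (adjusted p = 0.0261) and after median-ratio scaling (limma adjusted p = 0.0479). Over 15 alternatives the adjusted p ran from 0.0261 to 1.0. The lysosomal channel gene Tmem175 stood at 12.2 and 12.6 against 11 and 13.6 units.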

How the data were processed

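Islet RNA of 4 libraries was sequenced after ribosomal RNA removal, with a directional, randomly primed kit, per the labels' protocols. Per the submitters' processing notes the tools were STAR 2.5.1b, HOMER 4.9 and edgeR, and the build was mm10; their roles are not given in the sources used here. Although the table's name says FPKM, the authors' values were not divided by length: the deposited signal counts reads in every 10000000 of a library. Reads were recovered by dividing by the value of 1 read, which gave whole numbers within 0.01 for 100% of values under 1000 units. Library totals were 68823160 and 81073502 reads (controls) and 76680281 and 78630832 reads (knockdown). Rn45s took 41.6% to 42.6% of them, and 4320910 to 4962798 reads lay outside the 13 rows over 25000 units (insulin genes kept). Even read counts made up 81.5% to 83.1% of those from 1 to 20 and 70.3% to 72.1% of higher ones, so an edgeR test on halved reads was added after seeing the data.

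Limma 3.58.1 (R 4.3.3) was fitted, two-sided and with a mean-variance trend, to log2(value + 1) of genes averaging 1 unit or more and 200 nt or longer. Adjustment was Benjamini-Hochberg over all genes tested, at 0.05, and 95% intervals are normal. edgeR 4.0.16 (quasi-likelihood, 194 genes called) and DESeq2 1.42.0 were run on recovered reads. Limma and edgeR were tested on simulated data. Alternatives changed the scaling, pseudocount, filter, variance model and test, or left out 1 library. Replicates were separate pools of islets, and p-values rest on the spread between these pools. In the main limma fit that spread was the trend over all genes. The spread of a single gene did not enter its p-value except through that trend, since the prior degrees of freedom were infinite. The limit given for a count of 0 covers counting error only and takes each read as counted on its own.

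Members and lists were chosen with earlier results of these data known. The genes named were any called, those with an unadjusted p under 0.05, the 3 highest tested of each class, the 4 highest and 4 lowest fold changes, and of the partners any called and the 2 highest of each group. Taz and other genes named, among them Kcna2, Kcnq1, Kcnq5, Kcne3, Kcne4, Kcnu1 and Kcnmb1, stand outside this rule. The channel genes among them were chosen after their values were seen. Some genes that the rule names are not reported here, also not in the figures, but they stay in the counts.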

Additional observations from a re-analysis of the deposited data

How the results depend on the processing

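With all 4 libraries in the fit, 0 members were called higher under each of the 11 alternatives, and 1 was called lower, Kcnf1 without the trend (adjusted p = 0.0259). Leaving out 1 library left 1 library alone in its group. Calls of members as higher then rose without control replicate 1, as did those over all genes. Kcnf1 stood at a relative log2 fold change of -2.10 without knockdown replicate 4. The median of the members on the relative log2 scale ran from -0.13 without control replicate 2 to 0.05 without control replicate 1. Over all genes, 337 higher and 6 lower became 174 and 20 with edgeR, 160 and 18 with edgeR on halved reads, 82 and 10 with DESeq2, 151 and 22 after median-ratio scaling, 80 and 0 without a filter, and 528 and 16 without the trend. Quantile normalization gave 86 higher, the robust fit 3 lower, and leaving out 1 library 28 to 1266 higher and 3 to 59 lower. Among partners 0 were higher with edgeR, edgeR on halved reads, DESeq2, the filter at 5 units, median-ratio scaling, no filter and quantile normalization. Leaving out 1 library gave 0 (without knockdown replicate 3) to 4 partners higher (without control replicate 1). With edgeR, edgeR on halved reads and median-ratio scaling 1 partner, Tmem38a, was lower. The cause of these changes was not tested.

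After quantile normalization the sign turned for Kcnh2 (0.02), Kcnip1 (0.09), Abcc8 (0.07), Nedd4 (0.11) and Slc12a7 (0.02). Leaving out 1 library moved the log2 fold change across 0 for Kcnab3 (-0.45 to 0.18), Kcnb2 (-0.22 to 0.51), Kcng3 (-0.27 to 0.98), Kcnh1 (-0.09 to 0.28), Kcnh2 (-0.25 to 0.17), Kcnj12 (-0.25 to 0.15), Kcnj6 (-0.18 to 0.11), Kcnk1 (-0.45 to 0.22), Kcnk16 (-0.01 to 0.09), Kcnma1 (-0.28 to 0.06), Kcnn3 (-0.48 to 0.07), Amigo1 (-0.05 to 0.14), Nedd4 (-0.10 to 0.02), Scn3a (-0.21 to 0.24), Scn9a (-0.31 to 0.05) and Slc12a7 (-0.10 to 0.02). A lone library of a group was assumed to vary like the other group. The filter at 5 units left 23 members tested. No paired analysis was possible because the groups share no replicate number.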

Other observations

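Several Kcn genes lie next to each other in the genome and were read at unequal levels. Kcnk5 and Kcnk16, which both encode two-pore-domain channels, lie 80974 nt apart on chromosome 14, with means over the 4 libraries of 0.0944 and 9.70 units per kb of span. Their spans are 41724 and 6406 nt, and before division by span the means were 3.94 and 62.2 units. Of the Kv1 genes on chromosome 3, Kcna2 stood at 0.931 units per kb, its neighbour Kcna3, 63438 nt away, at 0.0693, and Kcna10, 68138 nt on the other side, at 0.00519. Kcnj2 stood at 0.330 units per kb and Kcnj16, 38197 nt away on chromosome 11, at 0.00121. Kcna3, Kcna10 and Kcnj16 held at most 2 reads in any library and were not tested, so their values per kb lie at the floor. The 3 Kv1 genes on chromosome 6, Kcna5, Kcna1 and Kcna6, were all low, at 0.259, 0.0493 and 0.0199 units per kb. They held 0 to 10 reads in a library and were not tested either. Kcne1 and Kcne2 on chromosome 16 were both read at 0.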
